A study of Mus musculus with 4 samples.

Results

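Transcripts of 10 tissue macrophage genes were followed in RNA of mouse hip and knee articular cartilage: Csf1r, Adgre1, Cd68, C1qa, C1qb, C1qc, Vsig4, Trem2, Mrc1 and Cd163. They were listed by name as macrophage markers, and the rule holds no threshold on a measured value, although earlier results of these data were known when the list was made. All 10 were found in both count tables, among 50686 gene identifiers counted in the hip, 54838 in the knee and 50488 present in both. The 4 libraries form 2 pairs with 1 library per group. Every mouse was male, and every label gives the floxed Cbfβ alleles, written Cbfβf/f, where Cbfβ is the partner subunit of the Runx transcription factors. The hip control was Cbfβf/f without Cre, with its treatment labelled None, and its partner was tamoxifen injected Cbfβf/f;Col2α1-CreERT, in which the Col2α1 promoter drives an inducible Cre in chondrocytes. The paper calls the hip controls wild type in its text, and its methods mention tamoxifen or corn oil for Cbfβf/f mice, so the genotype and tamoxifen exposure of this control are not settled. The knee control was oil injected Cbfβf/f;Aggrecan-CreERT, and its partner carried the same alleles and received tamoxifen, with the Cre under the Aggrecan promoter. The hip mice are described both as 6 weeks and as 2 months old, and tamoxifen was injected at 2 weeks of age. The knee mice were 12 weeks old, and their tamoxifen is placed both at 8 weeks and at 6 weeks of age. The paper gives a general number of mice per group, but how many animals went into a library is not given in the sources used here.

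Macrophages of joint tissues depend on the CSF1 receptor for survival, and they line the synovium, lie in its connective tissue and populate the marrow beside the cartilage. They take up dead cells and debris, and they are a main source of the complement component C1q. Articular cartilage itself holds almost no macrophages.

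Gene counts summed to between 34264456 and 38473120 in a library, and a count of 3, taken as the detection floor, was 0.078 to 0.0876 CPM (counts scaled by the library total). All 10 genes lay above this floor in every library. The targeted gene Cbfb had 2548 counts in the hip control and 2946 in its partner, a log2 ratio of 0.41 with a 95% counting interval of 0.33 to 0.48. In the knee it had 3796 and 4572 counts, a log2 ratio of -0.07 with an interval of -0.13 to -0.01. Since the whole-gene counts of Cbfb were higher in the hip partner and nearly level in the knee, the treated libraries are called here the libraries labelled Cbfb-deficient. By western blot, the paper reports less Cbfβ protein in hip cartilage of both Cre lines after tamoxifen. Protein and whole-gene RNA counts are unlike measures, so these counts do not show whether the deletion took place. Markers went against the tissue label of the hip libraries: 14 chondrocyte genes held 0.0192% and 0.00873% of the hip counts, and 14 skeletal muscle genes held 17.3% and 18.6%. In the knee the chondrocyte genes held 0.599% in the control and 0.243% in its partner, muscle genes 1.3% and 2.75%, neutrophil genes 3.39% and 2.82%, and erythroid genes 9.99% and 4.94%. No gene found of any cell type list was at 0 in any library.

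In the hip, 7 of the 10 macrophage genes were lower in the library labelled Cbfb-deficient than in the control, 2 were higher, and Vsig4 lay within counting error. Transcripts of the CSF1 receptor, of the surface protein F4/80 (Adgre1) and of all C1q chains were lower by 2.16-fold to 3.78-fold, while the haemoglobin scavenger receptor Cd163 was 2.2-fold higher. In bulk RNA fewer cells of a type and less RNA per cell cannot be told apart. Of the knee genes 5 were higher and 5 lower, and Vsig4, the complement receptor CRIg, was 4.62-fold higher. With 1 library per group no p-value was computed within a pair. Each ratio is the log2 of the library labelled Cbfb-deficient over its control after TMM scaling, with a 95% Clopper-Pearson interval that covers counting error only, and it compares 2 libraries, not the conditions. A gene is called higher or lower where the interval lies on 1 side of 0, and changed where the log2 ratio is also at least 1 in size. By this rule 1 gene was changed upward and 5 downward in the hip, and 1 upward and 0 downward in the knee. These calls were common in both pairs: among 19856 hip genes 20.2% were changed upward, 16.3% changed downward, 37.3% higher and 33.7% lower, and among 21131 knee genes the shares were 9.00%, 6.81%, 31.9% and 29.7%. The median log2 ratio of the 10 genes was -0.97 in the hip and -0.01 in the knee, against 0.01 and 0.02 over all genes. Where ratios were corrected for their trend over transcript length and GC content, only Adgre1, Csf1r and C1qb were still changed in the hip, and Vsig4 in the knee. These 3 of 10 and 1 of 10 stand beside 29.6% of all hip genes and 14.7% of all knee genes changed in either direction after the same correction.

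**Figure D1:**
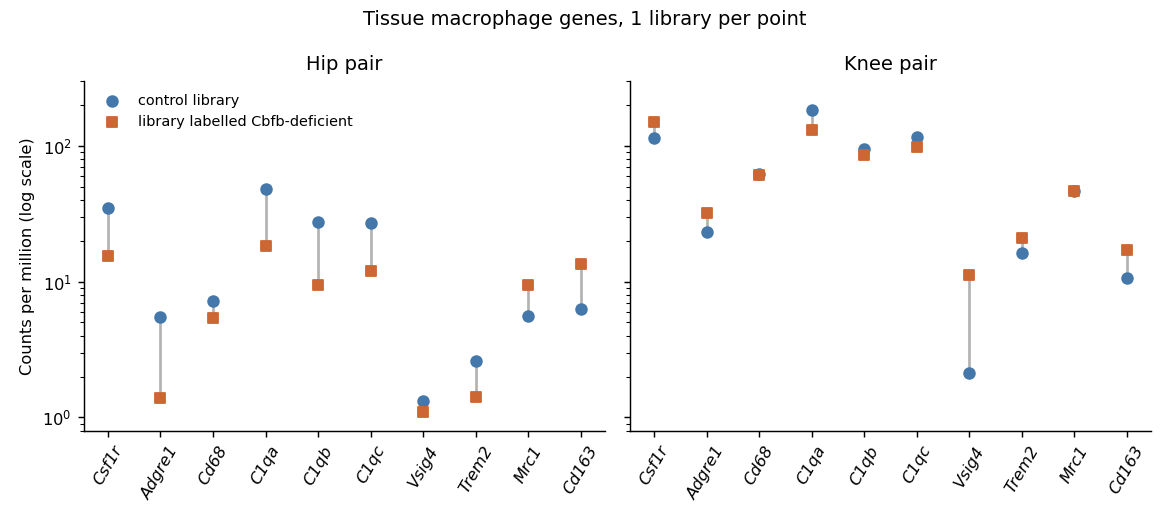
CPM (log axis) of the 10 tissue macrophage genes in the hip pair (left) and the knee pair (right), with circles for the control library, squares for the library labelled Cbfb-deficient and a grey line joining the pair. In the hip panel squares lie below circles for all genes but Mrc1 and Cd163, and in the knee panel Vsig4 has the widest gap, 2.13 against 11.2 CPM.

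Csf1r (GRCm39 ENSMUSG00000024621, chromosome 18, 61229714 to 61266535, plus strand) encodes the receptor for CSF1 and IL-34, on which the lineage depends. Its level was 34.9 CPM in the hip control and 15.4 CPM in the hip library labelled Cbfb-deficient, and 115 and 151 CPM in the knee. The hip ratio was -1.14 (interval -1.29 to -0.99) and the knee ratio 0.22 (0.16 to 0.28). The hip library labelled Cbfb-deficient was thus the lowest of the 4 and its knee counterpart the highest. The knee direction rested on how the libraries were corrected, since the ratio came to -0.04 after correction for length and GC content. Csf1r shares exon bases with Hmgxb3 on the other strand, and whether the counting used strand is not stated.

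Adgre1 (ENSMUSG00000004730, chromosome 17, 57665573 to 57790527, plus strand) encodes F4/80, the adhesion receptor by which mouse macrophages are usually stained. It had 5.46 and 1.39 CPM in the hip and 23.2 and 32.1 CPM in the knee. At 210 counts against 48, the hip ratio of -1.92 (-2.42 to -1.47) was the lowest of the 10 genes, and in the knee the ratio was 0.29 (0.16 to 0.42). Both directions held under all 7 other scalings and corrections of the counts, from -2.09 to -1.65 in the hip and from 0.18 to 0.49 in the knee.

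Cd68 (ENSMUSG00000018774, chromosome 11, 69555037 to 69557067, minus strand) encodes a lysosomal glycoprotein that other phagocytes and osteoclasts also make. It stood at 7.17 and 5.38 CPM in the hip and at 61.5 and 61.3 CPM in the knee, level in the latter. The TMM ratios were -0.37 (-0.65 to -0.10) and -0.19 (-0.27 to -0.10), but after correction for length and GC content both turned, to 0.21 and 0.03, so that no direction is given for Cd68.

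**Figure D2:**
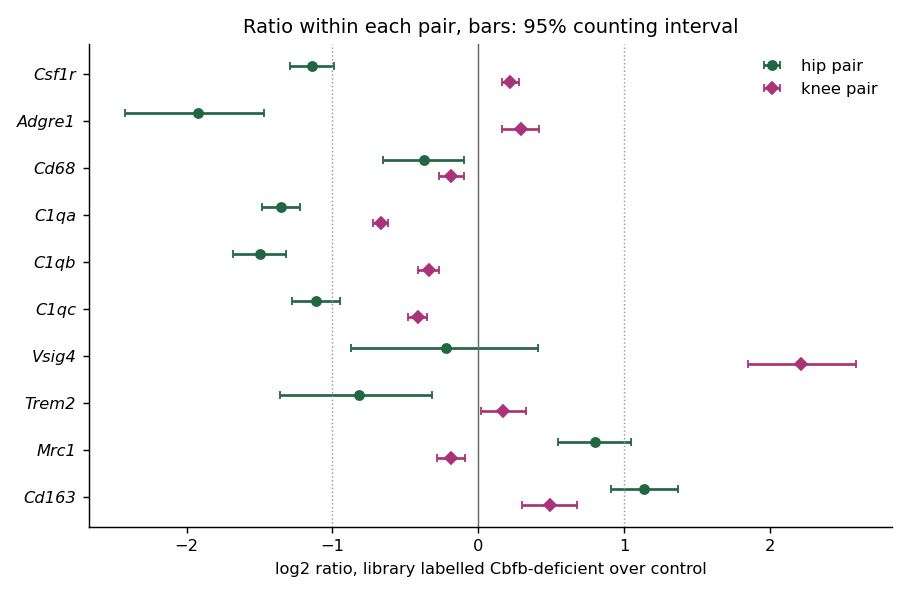
Log2 ratio of the library labelled Cbfb-deficient over its control for each of the 10 genes, with circles for the hip pair, diamonds for the knee pair and bars for the 95% counting interval. Dotted lines mark log2 ratios of 1 and -1: in the hip, 5 genes lie to the left of the lower line and Cd163 to the right of the upper line, and in the knee only Vsig4 lies beyond either.

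C1q, the recognition unit of the classical complement pathway, is built of 3 chains whose genes lie side by side. C1qb, C1qc and C1qa follow one another on the minus strand of chromosome 4 within 20153 bases (GRCm39, 136606009 to 136626161), with gaps of 2954 and 2846 bases. C1qa had 48.4 and 18.4 CPM in the hip and 184 and 131 CPM in the knee. C1qb had 27.4 and 9.4 CPM in the hip and 95.4 and 85.5 CPM in the knee. C1qc had 26.8 and 12 CPM in the hip and 116 and 98.7 CPM in the knee. All chains were lower in both libraries labelled Cbfb-deficient.

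The hip ratios were -1.35 (-1.48 to -1.22) for C1qa, -1.50 (-1.68 to -1.32) for C1qb and -1.11 (-1.28 to -0.95) for C1qc. The knee ratios were -0.67 (-0.72 to -0.62), -0.34 (-0.41 to -0.27) and -0.41 (-0.48 to -0.35) in the same order. For each chain the hip and knee intervals did not overlap, but after correction for length and GC content they did for C1qc (longest transcript) and C1qa (canonical transcript). All 3 chains kept this direction in both pairs under every scaling and correction run, although after correction for length and GC content the hip ratios of C1qa and C1qc were -0.69 and -0.51, short of the size called changed. Summed over the chains, 3948 counts in the hip control stood against 1379, a log2 ratio of -1.32 (-1.41 to -1.23), and 13552 against 12064 in the knee, a ratio of -0.51 (-0.54 to -0.47). C1qb and C1qc share exon bases with the opposite-strand gene Gm69251.

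The balance between the chains was compared within each library. C1qa held 47.2% of the C1q counts in the hip control (45.6% to 48.8%) and 46.3% in its partner (43.6% to 48.9%), and these intervals overlap. C1qb held 26.7% and 23.6%, and C1qc 26.1% (24.7% to 27.5%) and 30.2% (27.8% to 32.7%), in the same libraries. In the knee C1qa went from 46.6% (45.7% to 47.4%) in the control to 41.6% (40.7% to 42.5%) in its partner, C1qb from 24.1% to 27.1%, and C1qc from 29.3% (28.5% to 30.1%) to 31.3% (30.5% to 32.1%). After correction for length and GC content of the longest and of the canonical transcript, C1qa held 52.6% and 52.1% in the hip library labelled Cbfb-deficient and 45.2% and 43.5% in that of the knee, and C1qb 14.3% and 20.3% and 22.3% and 25.1%, so the balance of the chains depended on the correction. Per kilobase of exon C1qa held 68.6% of the C1q level in the hip control and 62.9% in the knee library labelled Cbfb-deficient, and per kilobase of the canonical transcript 63.8% and 58.1%.

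Vsig4 (ENSMUSG00000044206, chromosome X, 95290807 to 95337044, minus strand) encodes CRIg, a receptor for fragments of complement C3 found on resident macrophages, those of the synovial lining among them. It was near the bottom of the list in the hip, with 1.33 and 1.1 CPM from 51 and 38 counts, a ratio of -0.22 whose interval of -0.87 to 0.41 spans 0. In the knee it stood at 2.13 and 11.2 CPM, from 73 and 429 counts, a ratio of 2.21 (1.85 to 2.59). Over the other scalings and corrections the knee ratio lay between 2.20 and 2.51. The knee library labelled Cbfb-deficient was thus the highest of the 4, and the knee control lay next above the hip libraries.

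Trem2 (ENSMUSG00000023992, chromosome 17, 48653429 to 48661175, plus strand) encodes a lipid-sensing receptor that signals through the adaptor Tyrobp. Its level was 2.6 and 1.42 CPM in the hip and 16.3 and 20.8 CPM in the knee. The hip ratio was -0.82 (-1.36 to -0.32) and the knee ratio 0.17 (0.02 to 0.33). The hip ratio depended on the transcript used for the correction, and with length and GC content taken from the canonical transcript it was -0.11. The knee ratio was 0.01 (-0.14 to 0.17) with those of the longest transcript. Trem2 shares exon bases with Gm65654 on the other strand.

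Mrc1 (ENSMUSG00000026712, chromosome 2, 14234151 to 14336926, plus strand), the mannose receptor CD206, and Cd163 (ENSMUSG00000008845, chromosome 6, 124281606 to 124307560, plus strand), which takes up haemoglobin bound to haptoglobin, are endocytic receptors of resident macrophages of connective tissue and marrow. Mrc1 had 5.61 and 9.48 CPM in the hip and 46.8 and 46.7 CPM in the knee. Cd163 had 6.26 and 13.4 CPM in the hip and 10.7 and 17 CPM in the knee. Before correction for length and GC content, these were the 2 of the 10 genes that were higher in the hip library labelled Cbfb-deficient.

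The hip ratio of Cd163 was 1.14 (0.91 to 1.37) and its knee ratio 0.49 (0.30 to 0.68), and it was the 1 gene of the 10 higher in both pairs. Under the other scalings and corrections its ratio stayed between 0.84 and 1.40 in the hip and between 0.32 and 0.69 in the knee. Mrc1 was less settled: the hip ratio of 0.80 (0.55 to 1.05) came to 0.07 and -0.12 after correction for length and GC content of the longest and of the canonical transcript. The knee ratio of -0.19 (-0.28 to -0.09) came to 0.02 when the libraries were scaled by their counts outside muscle genes. No direction is therefore given for Mrc1.

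Promoters of genes that were higher or lower in these pairs, and of Mrc1, for which no direction is given, are printed here. They are shown because PU.1 (Spi1), the ETS factor that sets up the macrophage lineage, binds GAGGAA cores in many macrophage promoters. Sequences came from RefSeq (GRCm38.p6), 250 bases before to 50 bases after the start of transcription, written 5′ to 3′ on the strand of the gene. Of the 10 genes 7 had one, and those shown are the neighbouring C1q genes C1qb (chr4:136886151-136886450) and C1qc (chr4:136892865-136893164), both on the minus strand, Vsig4 (chrX:96293389-96293688, minus strand), Mrc1 (chr2:14229164-14229463, plus strand) and Cd163 (chr6:124304401-124304700, plus strand). Capitals mark GAGGAA or its reverse complement TTCCTC.
C1qb: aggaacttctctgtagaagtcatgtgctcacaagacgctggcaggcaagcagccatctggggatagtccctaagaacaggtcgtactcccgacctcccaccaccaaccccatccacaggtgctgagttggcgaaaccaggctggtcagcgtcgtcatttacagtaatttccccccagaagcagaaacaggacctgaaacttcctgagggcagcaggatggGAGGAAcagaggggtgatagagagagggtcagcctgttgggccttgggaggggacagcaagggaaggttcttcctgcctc
C1qc: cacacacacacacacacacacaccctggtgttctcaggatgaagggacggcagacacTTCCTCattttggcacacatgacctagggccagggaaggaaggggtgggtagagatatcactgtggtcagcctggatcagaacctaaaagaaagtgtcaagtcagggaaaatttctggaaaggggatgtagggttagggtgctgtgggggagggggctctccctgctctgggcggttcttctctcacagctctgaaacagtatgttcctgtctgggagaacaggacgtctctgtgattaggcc
Vsig4: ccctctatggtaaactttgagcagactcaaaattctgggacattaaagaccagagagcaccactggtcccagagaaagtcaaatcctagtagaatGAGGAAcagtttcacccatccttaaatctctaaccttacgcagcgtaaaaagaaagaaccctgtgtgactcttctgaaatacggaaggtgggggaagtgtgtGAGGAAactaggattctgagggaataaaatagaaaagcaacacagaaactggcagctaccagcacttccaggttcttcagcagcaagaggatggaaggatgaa
Mrc1: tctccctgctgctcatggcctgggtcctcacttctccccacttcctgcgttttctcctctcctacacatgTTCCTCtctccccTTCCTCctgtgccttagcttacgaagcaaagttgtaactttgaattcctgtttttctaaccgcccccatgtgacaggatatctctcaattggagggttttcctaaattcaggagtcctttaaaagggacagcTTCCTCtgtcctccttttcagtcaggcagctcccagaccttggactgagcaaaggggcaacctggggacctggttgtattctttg
Cd163: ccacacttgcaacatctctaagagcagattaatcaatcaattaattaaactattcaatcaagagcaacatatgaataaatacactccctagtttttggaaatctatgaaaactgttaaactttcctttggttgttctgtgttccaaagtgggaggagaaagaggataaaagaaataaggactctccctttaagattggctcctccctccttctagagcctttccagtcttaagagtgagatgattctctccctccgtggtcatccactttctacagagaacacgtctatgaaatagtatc
The core was present in 6 of the 7 promoters, on either strand, and in 28.3% of all 32851 promoters of this length. C1qb and C1qc held 1 each, at bases -30 and -193 from the start, Vsig4 2, at -155 and -53, and Mrc1 3, at -180, -167 and -35. The Cd163 window held none. The AP-1 sequence TGAGTCA, searched on both strands, was found in the Cd68 window alone of the 7, and in 5.2% of all promoters. A match describes letters only.

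The make-up of the 10 genes was then compared between libraries. Together they had 6384 counts in the hip control and 3021 in its partner, or 166 and 87.4 CPM, a log2 ratio of -0.88 (-0.94 to -0.82). In the knee they had 22989 and 25083 counts, or 671 and 656 CPM, a ratio of -0.21 (-0.24 to -0.19) that was 0.12 when the C1q genes were left out of the sum. Of these counts Cd163 held 3.78% in the hip control (3.32% to 4.27%) and 15.3% in the hip library labelled Cbfb-deficient (14% to 16.6%). In the knee its share was 1.59% and 2.58%.

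Shares and ratios of this kind do not depend on the scaling between libraries, but they do depend on corrections for length and GC content. The correction here is that of the longest transcript unless the canonical transcript is named. For every 100 counts of Csf1r there were 18 of Cd163 in the hip control and 87 in its partner, 79.7 after the correction, and there were 9.27 and 11.2 in the knee. For Mrc1 there were 16.1 and 61.8 in the hip pair, the latter 37.8 after the correction, against 40.7 and 30.8 in the knee pair. For Vsig4 there were 3.8 and 7.16 in the hip, from 51 and 38 counts, and 1.85 and 7.41 in the knee. The C1q chains held 61.8% and 45.6% of the counts on the 10 genes in the hip pair, and 58.9% and 48.1% of them in the knee pair. After the correction the C1q share in the libraries labelled Cbfb-deficient was 55.3% in the hip and 50.5% in the knee, still below the controls. By the canonical transcript it was 58.3% and 51.1%. The joint share of Mrc1 and Cd163 in the hip was 7.16% in the control and 26.2% in its partner, or 17.8% after the correction, and that of Cd163 alone came to 12.1%. By the canonical transcript these corrected shares were 15.7% and 10.7%.

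**Figure D3:**
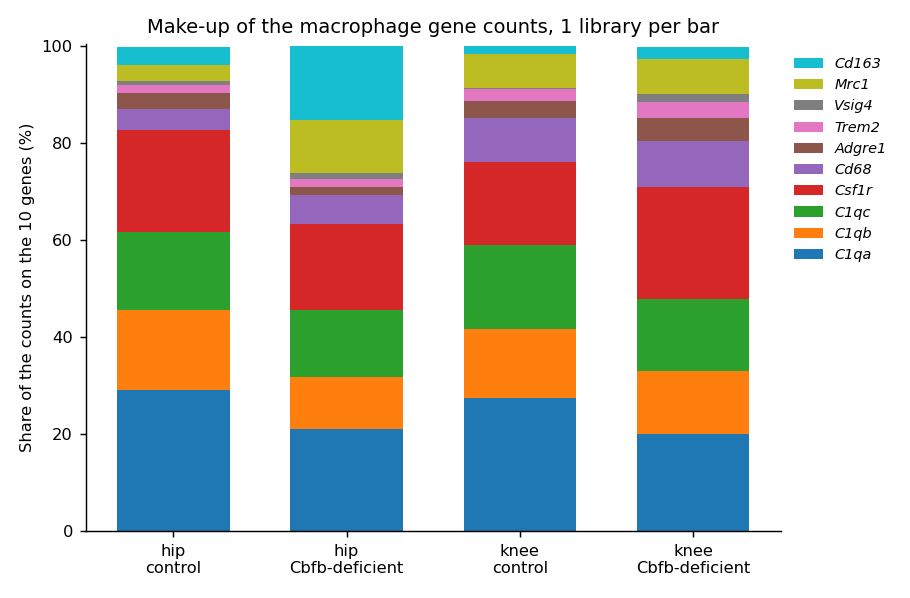
Share of the counts on the 10 tissue macrophage genes (percent, from 0) held by each gene, 1 stacked bar per library. In the hip library labelled Cbfb-deficient, Mrc1 and Cd163 together take 26.2% against 7.16% in its control, and in the knee 9.7% against 8.56%.

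Levels were compared between genes as CPM per kilobase of exon. C1qa was the highest in every library, at 30.1 and 11.5 in the hip pair and at 114 and 81.6 in the knee pair. In the hip control C1qc followed at 9.37, then Cd68 at 5.24, Csf1r at 4.74 and C1qb at 4.39, and the counting intervals of Cd68 and Csf1r and of Csf1r and C1qb overlapped. Adgre1 at 1.55, Cd163 at 1.13, Vsig4 at 0.892, Mrc1 at 0.717 and Trem2 at 0.526 closed the order, and from Cd163 down each overlapped with the next.

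The order differed in the other libraries. In the hip library labelled Cbfb-deficient Cd163 ranked 4 at 2.41, level with Csf1r at 2.09 within counting error, and Adgre1 ranked 9 at 0.394. In the knee control Cd68 (44.9) stood above C1qc (40.5) by exon length but below it by the canonical transcript (51.3 against 62.5), and Cd163 (1.92) and Vsig4 (1.43) overlapped at the bottom. In the knee library labelled Cbfb-deficient Vsig4 ranked 7 at 7.55, and all neighbours lay outside each other's counting intervals. C1qa kept the first place by every length, and many of the other places depended on the length used. By the canonical transcript C1qb and Trem2 were at 10.8 and 2.39 in the hip control, and Vsig4 ranked 9 in the knee library labelled Cbfb-deficient.

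Between joints, the 10 genes together were 4.04-fold higher in the knee control than in the hip control in CPM. The ratio was 8.57 for Cd68, 8.33 for Mrc1 and 6.25 for Trem2, and 1.7 for Cd163 and 1.61 for Vsig4. These libraries differ in joint, genotype, age, treatment and the program that counted the reads, which cannot be told apart.

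A fit over all 4 libraries with joint as a block, by edgeR's quasi-likelihood test with Benjamini-Hochberg adjustment over 18388 genes, had 1 residual degree of freedom. It called none of the 10 genes at an adjusted p under 0.05, and 2 genes or 0.0109% of all genes. Its unadjusted p lay under 0.05 for 2 of the 10, C1qa and C1qb, and for 6.12% of all genes. The edgeR fit gave C1qa a log2 ratio of -1.13 with an adjusted p of 0.782, and C1qb a log2 ratio of -1.04 with an adjusted p of 0.8, both lower in 2 of 2 pairs. DESeq2 also called 0 of the 10 at an adjusted p under 0.05, with 2 at an unadjusted p under 0.05, beside 3.47% of 35602 genes.

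**Figure D4:**
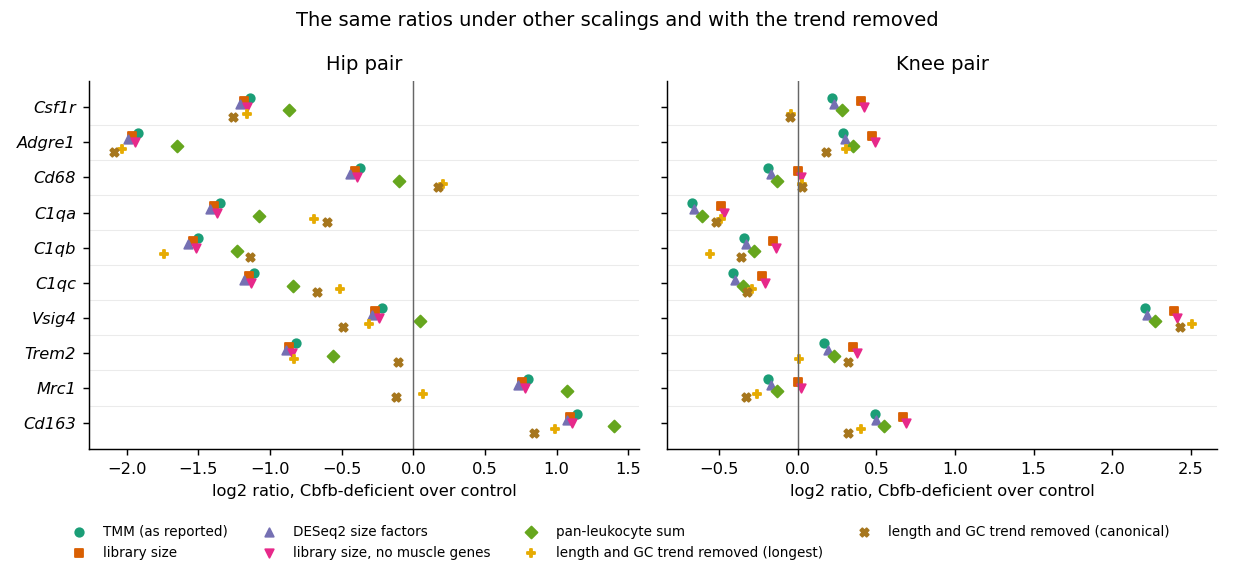
Log2 ratio of each gene in the hip pair (left) and the knee pair (right) under TMM and 6 other scalings or corrections, 1 marker shape for each. Adgre1, the C1q genes and Cd163 stay on 1 side of 0 in both panels, whereas Cd68 and Mrc1 fall on both sides of 0 in both panels.

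The other genes of the CSF1 receptor pathway were mostly nearer to level. Of 13, 3 were higher and 7 lower in the hip, with a median of -0.17, and 4 were higher and 6 lower in the knee, with a median of 0.03. The ligand Csf1 was lower in both, by -0.32 (-0.49 to -0.15) in the hip and -0.30 (-0.40 to -0.21) in the knee. The second ligand Il34 was at -0.57 (-0.88 to -0.27) in the hip and at 0.07 (-0.12 to 0.26) in the knee. Neither ligand reached the size called changed.

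Among the lineage transcription factors Spi1 was at -0.16 (-0.36 to 0.04) in the hip and -0.27 (-0.31 to -0.23) in the knee. Maf was at 0.38 and -0.21, Irf8 at -0.52 and 0.07 and Cebpa at -0.51 and 0.61. Runx1, which can pair with Cbfβ, was at 0.38 (0.13 to 0.64) in the hip and 0.07 (-0.01 to 0.16) in the knee. Of the signalling genes, Tyrobp was at -0.55 and -0.26, and Pik3cg, which encodes a lipid kinase, was changed upward in the hip at 1.01 (0.45 to 1.60) and higher in the knee at 0.81 (0.69 to 0.93). Inpp5d (0.27 and 0.03) lay within counting error in both pairs, and Grb2 was at -0.17 and -0.07.

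Further macrophage genes numbered 20. Of these, 4 were higher and 10 lower in the hip, with a median of -0.49, and 8 were higher and 7 lower in the knee, with a median of 0.00. Lyve1, a hyaluronan receptor of macrophages around vessels and of lymphatic endothelium, was changed upward in the hip at 1.28 (1.12 to 1.45), and Mertk, a receptor for apoptotic cells, at 1.17 (0.87 to 1.49). Siglec1, the sialic acid receptor CD169, and Folr2, a folate receptor, were changed downward in the hip, at -1.15 (-1.88 to -0.49) and -1.60 (-2.53 to -0.81), and changed upward in the knee, at 1.01 (0.66 to 1.38) and 1.89 (1.20 to 2.72). Cd209f, a C-type lectin, had 175 counts in the hip control and 14 in its partner, a ratio of -3.40 (-4.35 to -2.66), and the chemokine receptor Cx3cr1 was at -1.46 (-2.17 to -0.83).

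**Figure D5:**
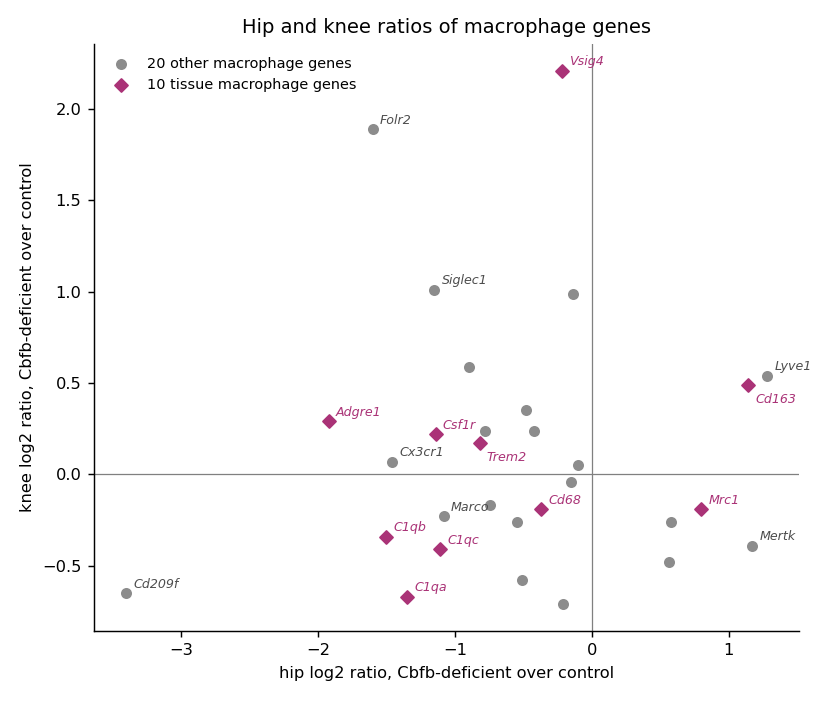
Hip log2 ratio (x axis) against knee log2 ratio (y axis), library labelled Cbfb-deficient over control, for the 10 tissue macrophage genes (diamonds) and 20 other macrophage genes (circles). Cd163 and Lyve1 lie right of 0 and above it, the C1q genes lie left of 0 and below it, and Vsig4, Folr2 and Siglec1 lie highest.

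Complement genes outside C1q and genes of complement uptake numbered 16. Of these, 5 were higher and 7 lower in the hip, with a median of -0.06, and 9 were higher and 4 lower in the knee, with a median of 0.21. C3, whose fragments Vsig4 binds, was at -0.18 (-0.27 to -0.09) in the hip and 0.30 (0.26 to 0.34) in the knee, and its receptor C3ar1 was changed upward in the knee at 1.22 (0.90 to 1.56). Genes listed for synovial lining macrophages numbered 8 outside the members. Of these, 1 was higher and 5 lower in the hip and 3 higher and 2 lower in the knee, with medians of -0.46 and 0.02. Sparc, which is among them, had 665 CPM in the hip control and 7560 CPM in the knee control, against 34.9 and 115 CPM for Csf1r. This list therefore cannot be read as lining macrophages alone, and the cells behind it were not tested. Markers of interstitial synovial macrophages, also 8, had 3 higher and 5 lower in the hip, with a median of -1.64, and 2 higher and 6 lower in the knee, with a median of -0.21. In the hip the antigen presentation genes Cd74 and H2-Ab1 led this list downward, at -2.34 and -2.49, while Cd163, which also belongs to it, was at 1.14.

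Other cell types differed within the same pairs. Pan-leukocyte genes, 8 in number, summed to 128 CPM in the hip control and 103 CPM in its partner (log2 ratio -0.27) and to 3070 and 3340 CPM in the knee (-0.06), with 2 higher and 4 lower in the hip. In the hip Ptprc and Lcp1 were at 1.24 and 0.64, and Laptm5 and Coro1a at -1.02 and -0.66. Osteoblast genes summed to 1600 and 383 CPM in the hip and 21400 and 11300 CPM in the knee, erythroid genes to 5890 and 2220 CPM and 99900 and 49400 CPM, and skeletal muscle genes to 173000 and 186000 CPM and 13000 and 27500 CPM. Adipocyte genes summed to 421 and 1270 CPM in the hip, of which Plin4 alone held 174 and 877 CPM, and to 724 and 1290 CPM in the knee. The part of these cell types in the ratios of the macrophage genes was not tested. With the hip libraries scaled to the pan-leukocyte sum, which moved the median of all genes to 0.28, the summed ratio of the 10 genes was -0.61. Csf1r and C1qc were then at -0.87 and -0.84, short of the size called changed, and Mrc1 at 1.07.

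By likeness of pattern, the 5 genes nearest to the summed macrophage genes among 11120 genes with at least 50 counts in every library were Tradd, Casp9, Ucp2, Slc25a13 and Klhl25, each with a root mean square difference of 0.06 in centred log2 CPM over the 4 libraries. Of the members themselves C1qc was nearest at 0.12 and Csf1r next at 0.18, and Cd163 was farthest at 1.22. Each member is part of the sum it was compared with. In the hip control the C1q chains held 61.8% of that sum, Csf1r 21% and Cd163 3.78%, so these places follow in part from that overlap. Adgre1, Vsig4 and Trem2 fell below 50 counts in at least 1 library and were not ranked. These distances are descriptions over 4 libraries.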

How the data were processed

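A single poly-A library per group was made with the NEBNext Ultra kit from hip or knee articular cartilage. The extraction label names osteoblasts, whereas the tissue labels and the paper give cartilage. The authors deposited raw counts per Ensembl gene, with no normalization. The submitters' processing notes name FastQC 0.11.3, STAR 2.0 and mm10, while the paper names GRCm39, so the build behind the counts is not settled; no coordinate came from the count tables. Hip counts carry HTSeq summary lines, 25.8% and 24.6% of the listed reads, which were left out. The knee tables came from another program and annotation.

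Identifiers were matched to GENCODE mouse symbols (91.8% hip, 92.6% knee), and gene positions are those of GRCm39. Ratios within a pair used TMM factors (edgeR 4.0.16, R 4.3.3), 0.5 counts added per library and genes with at least 10 counts over the pair. The joint-blocked fit used edgeR, with DESeq2 1.42.0 as an alternative. Scripts were tested on simulated data: 200 of 200 genes changed 4-fold were recovered in the hip pair (19956 genes) and the knee pair (21092 genes). Of the unchanged genes 0.78% and 0.651% were called there. The joint-blocked fit also recovered 200 of 200, with 3 false calls among 18995 genes. Its simulated spread between libraries was below the common biological coefficient of variation of 0.402 estimated in the real data. The tests check the scripts and do not measure power in these data.

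The members and the 21 other lists were chosen with earlier results of these data known. Named genes were all members, Cbfb, Ptprc, the CSF1 receptor pathway list (some of its genes are not reported here), and of each other list at most the 3 with the most counts plus changed genes a sentence turns on, and the 5 genes of most similar pattern. Alternatives were other scalings, added counts, filters, thresholds, trends over length and GC content, and sums without C1q genes. The canonical transcript length and the correction of shares were added after seeing the data.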

Additional observations from a re-analysis of the deposited data

Results flagged for a closer look

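Adgre1, Csf1r, Trem2 and Mrc1 were marked because their hip and knee ratios lay on opposite sides of 0, each beyond its counting interval. The knee minus hip difference of log2 ratios was 2.21 for Adgre1 (-1.92 in the hip, 0.29 in the knee), 1.36 for Csf1r (-1.14 and 0.22), 1.00 for Trem2 (-0.82 and 0.17) and -0.98 for Mrc1 (0.80 and -0.19). Each pair holds 1 library per group, so the difference was not tested. The pairs also differ in the Cre driver, in age, in the treatment of the control and in the program that counted the reads, which cannot be told apart from the joint. The knee ratio of Csf1r came to -0.04 after correction for length and GC content, whereas that of Adgre1 stayed above 0. After the same correction the knee ratio of Trem2 was 0.01 and the hip ratio of Mrc1 0.07.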

How the results depend on the processing

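No paired analysis was possible because the labels carry no replicate numbers and each group is 1 library, other than the block for joint in the fit over all 4 libraries. No library could be left out of a pair. The summed hip ratio of -0.88 was -0.95 with DESeq2 size factors, -0.61 scaled to the pan-leukocyte list, -0.69 and -0.66 after correction for length and GC content of the longest and of the canonical transcript, -0.73 without C1qa and -0.37 without the C1q genes. The number of changed hip members was 3 of 10 against 6 after either correction, which left 29.6% and 29.1% of all hip genes changed, and 1 against 2 had an interval above 0. Cd68 in the hip turned to 0.21 and 0.17, and Mrc1 to -0.12 with the canonical transcript.

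In the knee, scaling by library size moved the median of all genes to 0.20, and without muscle genes to 0.22. The summed ratio of -0.21 was then -0.03 and -0.01, below that median, and 3 rather than 5 members had an interval below 0, Cd68 and Mrc1 coming to 0.02 each without muscle genes. It was -0.15 scaled to the pan-leukocyte list, -0.07 without C1qa and 0.12 without the C1q genes. After the first correction 3 rather than 5 had an interval above 0. Csf1r was at -0.04 and -0.05 and Cd68 at 0.03 after the one and the other. At a log2 ratio of 0.5, 2 knee members were changed against 1, beside 34.4% of all knee genes, and 8 hip members, beside 55.4% of all hip genes.

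Over all genes, 7252 hip genes were changed, 4548 with at least 10 counts in each library and 10994 at a log2 ratio of 0.5, and 3342 knee genes, 2013 and 7272. The joint-blocked fit called 2 of 18388 genes, and 44 of 35602 without the filter on low counts. DESeq2, also run without that filter on 35602 genes, called 46. None of them was a member. Of the other alternatives, for single genes, levels and shares, 167 were the same, 120 moved and 9 reversed, the latter those of Cd68, Csf1r and Mrc1 given above. The causes were not tested. Low counts limit Vsig4, Adgre1 and Trem2 in the hip.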

Other observations

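Other myeloid programmes were measured in the same libraries. Inflammatory monocyte genes, 10 in number, had 5 higher and 3 lower in the hip and 7 higher and 3 lower in the knee, with medians of 0.17 and 0.18. Macrophage activation genes had 3 higher and 5 lower of 12 in the hip and 3 higher and 9 lower of 13 in the knee, with medians of -0.06 and -0.46. Osteoclast genes, which mark multinucleated cells of the same lineage, had a median of -0.10 over 11 genes in the hip and -0.65 over 12 in the knee, where 5 were changed downward. Erythroblastic island macrophage genes outside the members, 9 in number, had 4 higher and 3 lower in the hip and 1 higher and 8 lower in the knee. Their medians were -0.08 and -0.39. Slc40a1, the iron exporter, was changed upward in the hip at 1.09 and was lower in the knee at -0.19. Siglec1, also of this list, was changed downward in the hip at -1.15.

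Among other leukocytes, neutrophil genes had medians of 0.15 and -0.18 in the hip and the knee, dendritic cell genes -1.04 and 0.16, mast cell genes -0.62 and 0.12, and B and T cell genes -1.31 and -0.56. Endothelial genes had medians of -0.04 and 0.35 and fibroblast genes -1.23 and 0.29. Chondrocyte genes were lower in 8 of 13 in the hip and in 12 of 14 in the knee, with medians of -0.44 and -1.71.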
